A study of Mus musculus with 5 samples.

Results

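The milk fat globule membrane genes are *Btn1a1*, *Xdh*, *Plin2*, *Cidea*, *Mfge8*, *Muc1*, *Muc15* and *Fcgbp*. These 8 genes, of 24319 in the expression table, were named by symbol from what is known of the membrane. The rule itself uses no measured value, but the genes were chosen with earlier results of these data known. All 8 had a value in every library and all 8 passed the minimum mean of 1 FPKM used for testing, so every member is accounted for. FPKM is the number of sequenced fragments of a gene, scaled to the length of its transcript and to all mapped fragments of the library. The values come from 5 bulk RNA-seq libraries of mouse mammary luminal cells, sorted as live cells with high CD24 and low CD29. By their labels, 3 libraries are wild type (replicates 1, 2 and 3) and the remaining 2 (replicates 4 and 5) are *Brca1* knockout, all on a mixed strain. In the methods of the study, *Brca1* is deleted from floxed alleles by a Cre under the MMTV promoter, which is active in mammary epithelium, and the luminal cells of this comparison are called BRCA1-deficient without a wild type group. The methods describe gland cell preparations from young adult females, either virgin or at mid-pregnancy. Which of these stages each library had is not given in the sources used here, and neither is whether a library came from 1 mouse or a pool. The p-values below measure the spread between these libraries only.

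Milk fat leaves a secretory cell as a droplet wrapped in membrane. The droplet forms in the cytoplasm with perilipin 2 (*Plin2*) on its surface, grows by fusion, and is enveloped by the apical plasma membrane as it buds into the lumen. Butyrophilin (*Btn1a1*), a transmembrane protein of the apical surface, and xanthine dehydrogenase (*Xdh*), a purine-degrading enzyme that also acts as a structural protein here, gather between droplet and membrane. Lactadherin (*Mfge8*) and the mucins *Muc1* and *Muc15* lie on the outer face of the finished globule. The milk-secreting cells belong to the alveolar branch of the luminal lineage, while the mature luminal branch carries the hormone receptors.

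The libraries had 10979 to 11336 genes at or above 1 FPKM. Fragment numbers estimated from the spacing of low values ran from 6280000 in replicate 1 to 30100000 in replicate 3 (approximate), with 21600000 in replicate 5. The part of depth in the results below was not tested. Every library expressed the luminal epithelial markers (summed FPKM of 5 genes 5810 to 9960, all 5 highest in replicate 3), whereas the 7 adipocyte markers summed to at most 1.19 FPKM and *Lep* was at 0 in all 5 libraries. Replicate 3, labelled wild type, stood apart. Its 9 mature luminal markers summed to 667 FPKM against 27.9 to 52.6 in the other 4 libraries (all 9 highest in replicate 3). Its 6 progenitor markers summed to 2290 against 2600 to 3540 (3 of 6 highest and 2 lowest there, with *Csn3* at 1738 of that sum). Its 6 basal markers summed to 7.38 against 39.6 to 129, with *Krt14* at 3.65 against 27.7 to 103.7. Of the 4 basal markers tested, 3 were lowest in replicate 3 and 0 highest. Replicate 2 had the highest leukocyte sum (267 FPKM over 7 markers, 51.7 in replicate 3, 4.88 to 8.24 elsewhere). *Lyz2* made up 212.5 FPKM of the sum in replicate 2 and 28.7 in replicate 3. *Cd79a* was instead highest in replicate 3, at 7.71 FPKM against 0.507 in replicate 2. Fibroblast sums over 6 markers were 109 FPKM in replicate 2, 86.0 in replicate 3 and 3.0 to 12.6 elsewhere. Endothelial sums over 5 markers were 6.59 FPKM in replicate 2, 7.5 in replicate 3 and 0.138 to 0.7 elsewhere. In bulk libraries, fewer cells of a type and less RNA per cell cannot be told apart, and the part of these differences in the results below was not tested. *Brca1* itself had 1.3, 1.32 and 0.234 FPKM under the wild type label against 1.2 and 1.34 under the knockout label. The labels overlapped, with no lower level under the knockout label, and the low value was that of replicate 3. A single value for the whole gene leaves the reads over the deleted exons unknown, so whether the labels are right was not tested. The groups are therefore named by label throughout.

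All 8 genes were above the median tested gene, from percentile 72.4 (*Cidea*) to percentile 99.1 (*Plin2* and *Mfge8*) of mean level. On the log2(FPKM + 1) scale the median level of the 8 was 7.5 ± 0.18 (SD, n = 5), against a median of 3.28 for the 11481 genes tested. By mean log2 level the order was *Plin2*, *Mfge8*, *Muc15*, *Btn1a1*, *Xdh*, *Fcgbp*, *Muc1* and *Cidea*. No neighbouring pair in this order passed the test of its difference, and none could. The smallest p that 5 libraries allow in that test lies above the threshold of 0.05, even before adjustment. The pairs were also set by ranking these same values, so the test cannot decide whether neighbours differ. *Mfge8* exceeded *Muc15* by 1.37 ± 1.73 (SD, log2, n = 5), and *Muc1* exceeded *Cidea* by 1.57 ± 1.01, each in 5 of 5 libraries, with an adjusted p of 0.2188 over 7 pairs by an exact two-sided sign-flip permutation test, whose unadjusted p was in both the smallest that 5 libraries allow. The other 5 neighbouring pairs differed by 0.17 to 0.81, kept their order in 3 or 4 of 5 libraries and had adjusted p of 0.2917 to 0.8125 in the same exact test. *Plin2* ranked first in 4 libraries and 4th in replicate 3, while *Fcgbp* moved from rank 6 to 8 in the other libraries to rank 2 there.

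**Figure D1:**
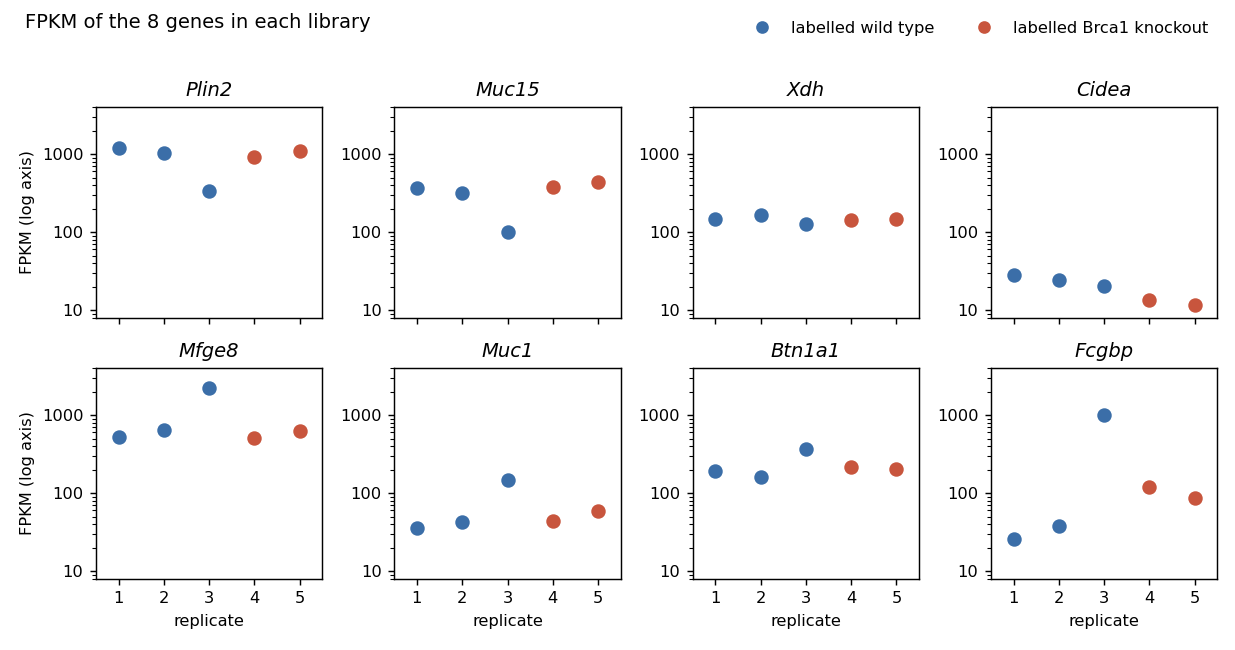
FPKM (log axis, the same in every panel) of each of the 8 genes against replicate number. Each point is 1 library, blue for those labelled wild type and red for those labelled *Brca1* knockout. In replicate 3, *Plin2* and *Muc15* lie below the other 4 libraries, *Mfge8*, *Muc1*, *Btn1a1* and *Fcgbp* lie above them, and *Xdh* and *Cidea* stay close to them.

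Among the genes that act on the droplet itself, *Plin2* was the most abundant member. *Plin2* (chromosome 4 of mm10, 86648386 to 86670060, minus strand, 8 exons) had 1198, 1043 and 337 FPKM under the wild type label, in order of replicate, against 906 and 1110 under the knockout label. Replicate 3 was the low library, 3.16-fold under the mean of the other 4, and the labels overlapped. *Cidea*, which encodes a protein of droplet contact sites that promotes fusion and lipid transfer, was the least abundant member, at 28.0, 24.6 and 20.6 FPKM under the wild type label and 13.4 and 11.5 under the knockout label. Both knockout-labelled libraries lay below all 3 others. *Cidea* (chromosome 18, 67343604 to 67367785, plus strand, 5 exons) is also the member with the fewest fragments, an estimated 96.5 in replicate 4, where the counting error is 10.2%. For the other 7 genes that error was at most 4.46%, counting error only.

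The genes for the link between droplet and membrane had the smallest spread of the 8, with an SD over the 5 libraries of 0.14 for *Xdh* and 0.45 for *Btn1a1* (log2). *Xdh* (chromosome 17, 73883895 to 73950196, minus strand, 36 exons) was at 148, 168 and 128 FPKM under the wild type label and 144 and 147 under the knockout label, a span of 1.32-fold over all 5 libraries. *Btn1a1* (chromosome 13, 23456992 to 23465901, minus strand, 8 exons), the butyrophilin whose cytoplasmic tail binds xanthine dehydrogenase, was at 193, 161 and 371 FPKM and at 214 and 203 FPKM in the same order. Replicate 3 held the highest *Btn1a1* and the lowest *Xdh*, and the FPKM ratio of *Btn1a1* to *Xdh* was 2.90 there against 0.958 to 1.48 in the other libraries. Both genes overlapped between the labels.

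On the outer face, *Mfge8* and *Muc1* were highest in replicate 3 and *Muc15* lowest. *Mfge8* (chromosome 7, 79133768 to 79149060, minus strand, 10 exons), whose product is secreted, binds phosphatidylserine and engages integrins, was at 516, 638 and 2195 FPKM under the wild type label and 506 and 631 under the knockout label. That is 3.83-fold above the mean of the other 4 libraries in replicate 3, while the other 4 lay within 0.33 of each other on the log2 scale. *Muc1* (chromosome 3, 89229057 to 89233381, plus strand, 7 exons), a transmembrane mucin of apical surfaces, was at 35.8, 43.2 and 149 FPKM and at 44.6 and 58.8 FPKM. *Muc15* (chromosome 2, 110721340 to 110739527, plus strand, 4 exons), the second transmembrane mucin of the globule, was at 363, 317 and 100.3 FPKM and at 380 and 444 FPKM. Thus replicate 3 was 3.26-fold above the mean of the others for *Muc1* and 3.75-fold below it for *Muc15*, and only *Muc15* had both knockout-labelled libraries above all others. The FPKM ratio of *Muc1* to *Muc15* was 1.48 in replicate 3 and 0.0985 to 0.136 elsewhere. *Muc15* shares 61 exon bases with *Ano3* on the opposite strand, which was at 0.0264 to 0.178 FPKM.

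*Fcgbp* varied most. This gene (chromosome 7, 28071236 to 28120862, plus strand, 20 exons) encodes a large protein of mucus secretions that was named for binding the Fc part of immunoglobulin G. It was at 25.6, 37.8 and 1004 FPKM under the wild type label and at 120.3 and 86.7 FPKM under the knockout label. Replicate 3 was 14.9-fold above the mean of the others, and even without it the remaining libraries spanned 2.19 on the log2 scale, with both knockout-labelled libraries above replicates 1 and 2. Of its longest coding transcript, 8.55% of 50-base windows (674 of 7879) also occur in the neighbouring gene *9530053A07Rik* (chromosome 7, 28129466 to 28164811, plus strand), so some reads may be shared. The neighbour followed the same pattern at 1.16, 1.10 and 38.4 FPKM and at 4.94 and 3.86 FPKM, which is 22.2 to 34.4 times lower than *Fcgbp*. Of the other members, *Plin2* shares 4.89% of its windows with *Gm12551*, *Muc15* 0.44% with *Ano3* and the remaining 5 none.

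Summed over the 8 genes, FPKM was 2508, 2433 and 4304 in replicates 1, 2 and 3 and 2328 and 2691 in replicates 4 and 5, or 0.365% to 0.819% of all FPKM in a library. The make-up of this sum was alike in 4 libraries and different in replicate 3. *Plin2* gave 38.9% to 47.8% of it in replicates 1, 2, 4 and 5 and 7.83% in replicate 3. *Mfge8* gave 20.6% to 26.2% in the 4 libraries and 51.0% in replicate 3. *Muc15* was at 13% to 16.5% against 2.33%, *Xdh* was at 5.46% to 6.91% against 2.97%, and *Fcgbp* was at 1.02% to 5.17% against 23.3%. *Btn1a1* held 6.62% to 9.17% in the 4 libraries and 8.61% in replicate 3, where its own FPKM was highest. *Cidea* never passed 1.12%.

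**Figure D2:**
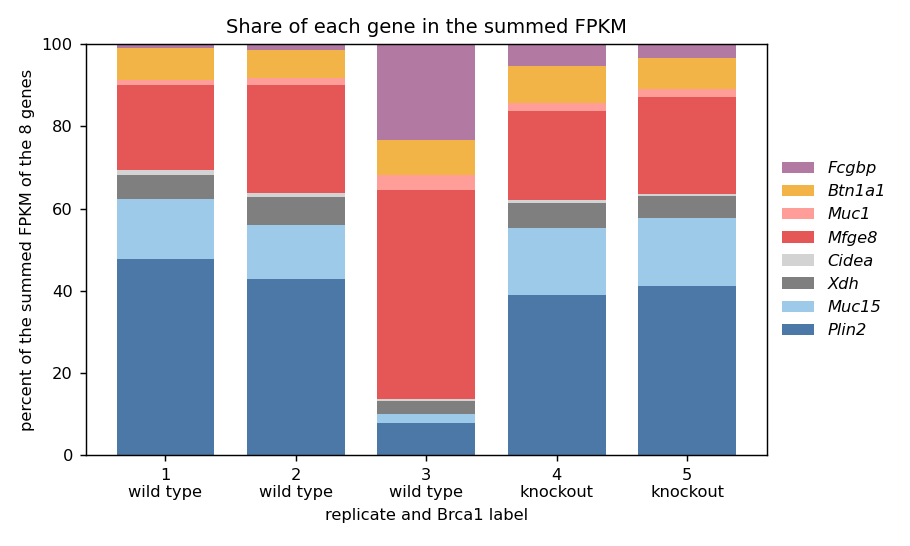
Stacked bars of the percent of the summed FPKM of the 8 genes that each gene takes, 1 bar per library, with replicate number and *Brca1* label on the horizontal axis. *Plin2* is the largest part in 4 libraries, and *Mfge8* (51.0%) and *Fcgbp* (23.3%) are the largest in replicate 3.

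Replicate 3 thus split the membrane genes. Relative to the mean of the other 4 libraries on the log2(FPKM + 1) scale, it was higher by 4.13 for *Fcgbp*, 1.94 for *Mfge8*, 1.71 for *Muc1* and 0.95 for *Btn1a1*, and lower for *Muc15* (-1.89) and *Plin2* (-1.65). These 6 directions were the same under median-of-ratios, quantile and top-10-removed scaling and relative to *Krt8*, *Krt18* and *Epcam*. *Xdh* (-0.24) turned to 0.07 under median-of-ratios scaling, and *Cidea* (0.18) to -0.53 relative to the 3 epithelial genes, so no direction is given for them. Those scalings shifted all genes of replicate 3 relative to the others by between -0.71 and 0.28. The median absolute deviation of replicate 3 was 1.68 for the 8 genes and 0.44 for all genes tested, whereas the median range over the other 4 libraries was 0.44 and 0.45. It was the highest library for 4 of 8 members (18.5% of all genes) and the lowest for 3 of 8 (51.8%). Replicate 3 was at least 1 above the others for 3 of 8 members (7.02% of all genes) and at least 1 below them for 2 of 8 (9.05%). This is the difference of 1 library, with no replicate of its own. Its marker sums moved with these values, and their part was not tested.

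**Figure D3:**
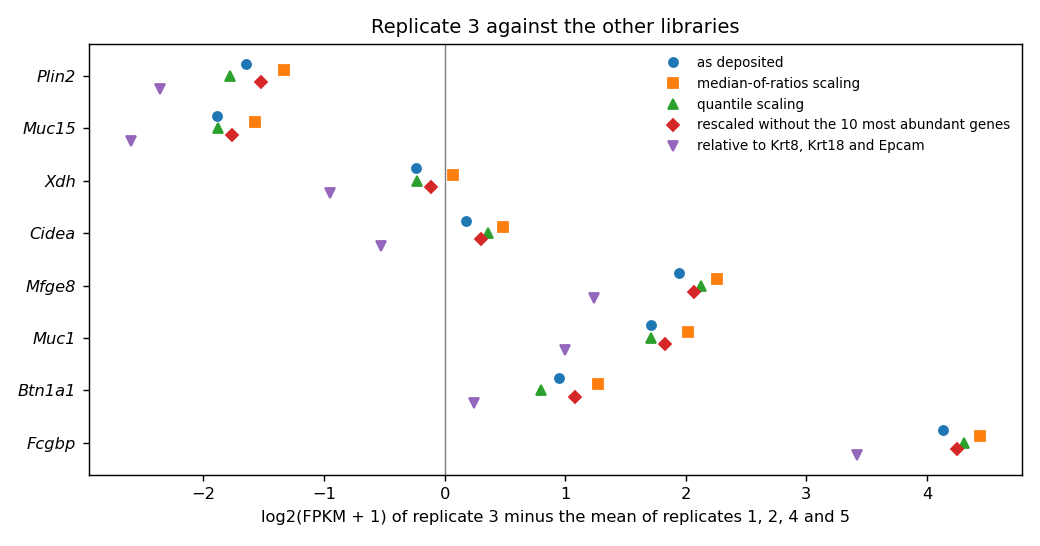
Log2(FPKM + 1) of replicate 3 minus the mean of the other 4 libraries for each of the 8 genes, with the values under the other scalings drawn beside the unscaled one. *Fcgbp*, *Mfge8*, *Muc1* and *Btn1a1* lie above 0 and *Plin2* and *Muc15* below 0 under every scaling, while *Xdh* and *Cidea* cross 0.

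Within these opposite movements, some pairs of genes kept their proportions in replicate 3. The pairs were picked from all 28 by their values, so this is a description. The FPKM ratio of *Plin2* to *Muc15* was 3.30, 3.29 and 3.36 in replicates 1, 2 and 3 and 2.38 and 2.50 in replicates 4 and 5. The ratio of *Mfge8* to *Muc1* was 14.4, 14.8 and 14.8, then 11.3 and 10.7. Both ratios were nearly the same in replicate 3 as in the other libraries labelled wild type. They were lower in the knockout-labelled libraries, but other pairs of the 28 also separate the labels, such as *Xdh* with *Cidea*. The full number was not counted, so this separation is no result about these pairs. Among single genes, 17.5% had both knockout-labelled libraries above all others and 5.77% had both below. Those shares are no base for ratios. No test was run on pairs chosen in this way. By contrast the ratio of *Mfge8* to *Plin2* was 6.51 in replicate 3 and 0.431 to 0.612 elsewhere.

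For the genes that moved most in replicate 3, the sequence before the start site is shown where a promoter entry was given, which was the case for 4 of the 8 members. Each line gives the 250 bases up to the RefSeq start (GRCm38.p6) in the 5′ to 3′ direction of the gene. Capitals mark matches, on either strand, to any of 4 motifs that do not overlap here: TTCNNNGAA (the palindrome of STAT factors), TATAAA (the box of core promoters), CACGTG (an E-box) and GGGCGG (the box bound by Sp factors).
*Plin2*, chr4:86670060-86670309, minus strand: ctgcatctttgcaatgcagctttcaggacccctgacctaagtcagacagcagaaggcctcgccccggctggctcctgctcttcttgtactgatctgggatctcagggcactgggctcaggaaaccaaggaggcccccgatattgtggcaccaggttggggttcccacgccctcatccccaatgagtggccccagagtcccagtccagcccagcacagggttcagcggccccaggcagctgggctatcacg
*Mfge8*, chr7:79149061-79149310, minus strand: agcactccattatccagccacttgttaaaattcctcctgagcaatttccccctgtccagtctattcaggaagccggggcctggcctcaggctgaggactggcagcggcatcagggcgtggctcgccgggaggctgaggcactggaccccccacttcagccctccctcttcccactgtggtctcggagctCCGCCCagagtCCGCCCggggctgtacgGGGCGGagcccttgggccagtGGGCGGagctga
*Muc1*, chr3:89228806-89229055, plus strand: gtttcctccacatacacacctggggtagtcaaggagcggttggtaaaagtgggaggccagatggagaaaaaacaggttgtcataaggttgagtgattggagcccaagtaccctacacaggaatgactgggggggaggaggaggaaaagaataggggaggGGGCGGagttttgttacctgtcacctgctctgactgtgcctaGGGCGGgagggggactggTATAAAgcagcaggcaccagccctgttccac
*Fcgbp*, chr7:28070986-28071235, plus strand: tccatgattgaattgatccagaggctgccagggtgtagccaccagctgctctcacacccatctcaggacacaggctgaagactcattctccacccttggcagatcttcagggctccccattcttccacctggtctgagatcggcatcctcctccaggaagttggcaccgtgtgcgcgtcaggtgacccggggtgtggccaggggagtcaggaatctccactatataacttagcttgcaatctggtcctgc

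The window of *Mfge8* held 4 copies of GGGCGG, and that of *Muc1* held 2 copies and 1 TATAAA. The windows of *Plin2* and *Fcgbp* held none of the 4 motifs. Over 32851 promoter entries, 32.7% held GGGCGG, 12.4% TATAAA, 7.02% TTCNNNGAA and 6.02% CACGTG in windows of the same length. A match is a description of these letters only.

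The design also asks whether the membrane genes differ between the *Brca1* labels. With limma and Benjamini-Hochberg adjustment, 0 of the 8 passed the threshold of 0.05, and so did 0 of the 11481 genes tested (0.0%). At an unadjusted p under 0.05 there were 1 member and 372 genes in all. The median difference (knockout label minus wild type label, log2) was -0.07 for the members, 3 higher and 5 lower, and 0.11 for all genes. Without replicate 3 the members' median was 0.11, and without replicate 1 or 2 it was -0.44 or -0.43. Counting libraries that do not overlap, 1 member (*Muc15*) had both knockout-labelled libraries above all others, as did 17.5% of all genes, and 1 member (*Cidea*) had both below, as did 5.77% of all genes. Beside those shares, 1 gene of 8 in either direction is no result about the membrane genes.

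*Cidea* was the member with an unadjusted limma p under 0.05 (0.00557, rank 29 of 11481 genes). Its difference was -0.90 ± 0.20 (SE, 95% interval -1.42 to -0.39, limma adjusted p = 0.92). This is 1.87-fold higher under the wild type label on the log2(FPKM + 1) scale, while the ratio of mean FPKM was 1.95. In the exact two-sided permutation test *Cidea* reached 0.2, the smallest p that 3 libraries against 2 allow. Its estimate lay between -1.03 and -0.72 in all 10 alternatives, and it failed the correction in each. *Muc15* was 0.86 ± 0.59 higher (95% interval -0.63 to 2.35, limma adjusted p = 0.92), and without replicate 3 this was 0.28. For *Xdh* the difference was -0.02 ± 0.20 (95% interval -0.51 to 0.48, limma adjusted p = 1.0), so differences of up to about those bounds could not be told from none.

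For the remaining 5 genes the label difference moved with replicate 3. *Fcgbp* had the widest interval, -4.04 to 4.09 around 0.03, and without replicate 3 its estimate was 1.68. *Mfge8* was at -0.67 (95% interval -2.33 to 0.99) and at -0.02 without replicate 3. *Btn1a1*, *Plin2* and *Muc1* turned their sign without it, from -0.12 to 0.24, from 0.42 to -0.16 and from -0.26 to 0.37. The limma adjusted p of these 5 genes ran from 0.92 to 1.0 with all libraries, and over all alternatives from 0.64 to 1.0.

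**Figure D4:**
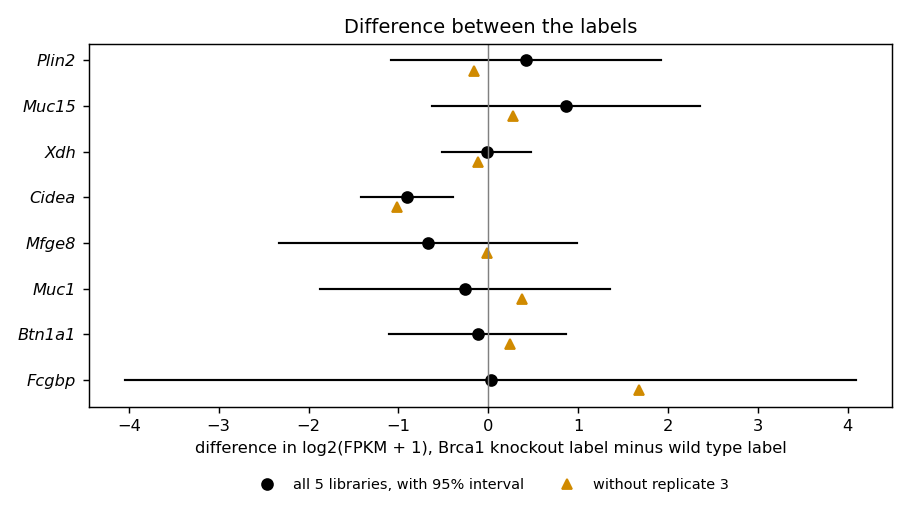
Difference in log2(FPKM + 1) between the labels (knockout minus wild type) for each of the 8 genes. Black points and bars are the limma estimates with 95% intervals over 5 libraries, and orange triangles are the estimates without replicate 3. Only the interval of *Cidea* (-1.42 to -0.39) does not reach 0, before adjustment over all genes.

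The other genes of lipid droplets gave a setting for *Plin2* and *Cidea*. Of 17 droplet genes, 11 had a mean of at least 1 FPKM, 0 passed the label test, 7 were higher and 4 lower under the knockout label (median 0.04), and 7 of the 11 were lowest in replicate 3, as were 51.8% of all genes tested. The lipase *Pnpla2* was at 165, 145 and 103.5 FPKM under the wild type label and 152 and 158 under the knockout label, and its activator *Abhd5* at 56.5, 70.5 and 25.7 and at 48.6 and 37.8. The lipase inhibitor *G0s2* was at 2.08 FPKM in replicate 3 against 20.2 to 45.1 elsewhere. *Hilpda*, a droplet protein that inhibits the same lipase, went the other way in replicate 3 (61.7 against 28.1 to 45.8 FPKM). The adipocyte forms were near 0 in every library, with *Plin1* at most 0.0903 FPKM and *Cidec* at most 0.0292.

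Of 10 further proteins of the globule membrane, all 10 were tested, 0 passed, and 5 were higher and 5 lower under the knockout label (median 0.0). In replicate 3, 5 of them were highest and 4 lowest, against 18.5% and 51.8% of all genes tested. *Fabp3*, a fatty acid binding protein, was at 1792, 1619 and 139 FPKM under the wild type label and 755 and 1176 under the knockout label. The fatty acid transporter *Cd36* was at 159, 87.2 and 5.94 FPKM and at 127 and 157.2 FPKM. Replicate 3 was the low library for both genes. In contrast *Cd14*, a receptor that also marks luminal progenitors, was at 387 FPKM in replicate 3, 350 in replicate 2 and 79.6 to 167.5 elsewhere, and the chaperone *Clu* stayed between 719 and 1113 FPKM.

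Few relatives of the members were expressed. None of 7 other butyrophilin genes passed the minimum, with 3 at 0 in every library and *Btn2a2* the highest at 0.551 to 1.01 FPKM. Of 6 other transmembrane mucins, 4 were in the table and 2 were tested. *Muc4* was at 23.2 to 48.3 FPKM and *Muc20* at 16.9 to 38.1 FPKM, and neither passed. None of 11 secreted mucus genes passed the minimum, although *Fcgbp* belongs with their products. *Muc2*, the intestinal gel-forming mucin, was at 0.0755 to 0.182 FPKM, and *Clca1* at 3.0 FPKM in replicate 3 and at most 0.0548 in the other libraries.

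Genes around the biochemistry of *Xdh* and *Mfge8* were read in the same way. Of 12 genes of the molybdenum cofactor and purine breakdown, 9 were tested and 0 passed (5 higher and 4 lower under the knockout label, median 0.10). In replicate 3, 1 of the 9 was highest and 5 were lowest, against 18.5% and 51.8% of all genes tested. The cofactor genes *Mocs2* (20.7 to 42.2 FPKM) and *Mocs1* (10.5 FPKM in replicate 3, 22.7 to 33.1 elsewhere) were the most abundant, and adenosine deaminase (*Ada*) was at 2.82 FPKM in replicate 3 and 14.5 to 23.2 elsewhere. Of 9 genes for phosphatidylserine bridging and its receptors, 8 were tested and 0 passed (3 higher and 5 lower, median -0.14). In replicate 3, 4 of the 8 were highest and 3 lowest, against the same 18.5% and 51.8%. The integrin chains *Itgav* and *Itgb3*, which pair into a receptor for lactadherin, were highest in replicate 3. *Itgav* was at 89.5 FPKM there against 21.6 to 39.0 elsewhere, and *Itgb3* at 34.9 against 0.596 to 1.72. The bridging ligand *Gas6* was likewise at 69.2 against 14.4 to 23.5 FPKM, while its receptor *Mertk* was lowest there, at 2.38 against 16 to 20.4 FPKM. *Axl*, another receptor of *Gas6*, was at 5.23 FPKM in replicate 2, 1.79 in replicate 3 and at most 0.291 elsewhere.

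Lastly, the genes whose centred log2(FPKM + 1) lay closest to each member over the 5 libraries were named, for the 7 members that spanned at least 1. The nearest gene to *Mfge8* was *Lalba*, which encodes the milk protein alpha-lactalbumin (root mean square difference 0.09, at 130, 172 and 599 FPKM and at 153 and 185 FPKM). *Ern1* and *Eppk1* followed at 0.11. For *Muc1* they were *Wnk2* (0.10), *Eppk1* (0.11) and *Cp* (0.11), so *Eppk1* stood beside both. *Plin2* lay closest to *Mrps35* (0.07), *Cpt2* (0.07) and *Pdhb* (0.08), which all encode mitochondrial proteins. *Muc15* lay closest to *Chaf1a* (0.07), *Kctd14* (0.08) and *Pycard* (0.09). *Btn1a1* lay closest to *Hist1h1d*, *Tmco3* and *Rhov* (0.06 each). *Cidea* lay closest to *Creld2* (0.05), *Lyplal1* (0.05) and *Hspa5* (0.13), the first and last of which encode proteins of the endoplasmic reticulum. *Fcgbp* had no gene as close, with *9530053A07Rik* at 0.34, *Hey1* at 0.39 and *Arhgef6* at 0.54. Over 5 libraries of which 1 stands apart, such likeness is a description.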

How the data were processed

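Luminal cells were sorted and paired-end libraries made with the NEBNext Ultra kit (its strand setting is not given in the sources used here). Per the labels, the authors trimmed reads with Trimmomatic 0.35, aligned them to mm10 with TopHat2 2.0.13 and computed the deposited FPKM with Cufflinks 2.2.1. The labels' extraction text speaks of tumors, although the source is luminal cells.

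From 24346 rows, 27 with a date as gene name were left out. FPKM carry no counts. In each library 42.8% to 52.0% of low values over 873 single-transcript genes lay within 0.15 of a whole multiple of 1 fragment. The depth was fitted to these same values, so the 30% that chance would give is not a fair comparison. Counts were not rebuilt, and fragment numbers are approximate. Levels were log2(FPKM + 1), which understates changes of low genes. The 11481 genes whose mean reached 1 FPKM were compared between labels with limma 3.58.1 (lmFit, eBayes with trend, R 4.3.3), Benjamini-Hochberg threshold 0.05. The fit was also run on simulated data with the same spread for every gene and no library standing apart. That run does not show how the fit behaves on data like these. Single values were tested by exact permutation (Python 3.11.15, scipy 1.17.1).

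The members and the 15 other gene lists were chosen with earlier results of these data known. Named genes are the members, up to 2 most abundant and 2 most different genes of each list, the 3 nearest in pattern and *Brca1*. Marker lists are given as sums, with *Csn3*, *Krt14* and *Lyz2* named as large parts of them. *Lep*, *Plin1*, *Cidec*, *Mertk*, *Ano3* and *Cd79a* were named after their values were seen. Positions are GENCODE M21 (GRCm38), promoters RefSeq. No protein sequence is shown. The alternatives were a pseudocount of 0.1, no filter on low values or a stricter one (mean 5 FPKM), eBayes without the trend or with a robust fit, other scalings, the mean in place of the median, and each replicate left out.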

Additional observations from a re-analysis of the deposited data

Results flagged for a closer look

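Taking the 5 libraries as 1 group, the highest or lowest library was compared with its nearest neighbour, as the gap divided by the whole range on the log2(FPKM + 1) scale. This share passed the critical value of 0.71 for 4 of 9 values examined, and in all 4 the library that stood apart was replicate 3, labelled wild type. It was 0.842 for *Mfge8*, where replicate 3 was highest, and 0.78 for *Plin2* and 0.773 for *Muc15*, where it was lowest. For the median level of the 8 genes it was 0.795 (7.81 in replicate 3 against 7.37 to 7.46). Chance alone flags about 1 in 20 groups, and the 4 values are not independent, since they come from the same library. *Btn1a1* (0.662), *Muc1* (0.654), *Fcgbp* (0.582), *Xdh* (0.47) and *Cidea* (0.168) did not pass. The marker sums of replicate 3 are given with the report, and their part in these values was not tested.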

How the results depend on the processing

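No member passed the threshold under any alternative. In the 10 alternatives that can move an estimate, *Cidea* ran from -1.03 to -0.72, *Mfge8* from -1.07 to -0.02 and *Muc15* from 0.28 to 1.2, with the values nearest 0 of the last 2 both without replicate 3. The sign of *Fcgbp* (0.03) reversed under median-of-ratios (-0.11) and quantile scaling (-0.03) and without replicate 1 (-0.94), 2 (-0.67) or 4 (-0.21). Relative to *Krt8*, *Krt18* and *Epcam*, *Btn1a1* turned to 0.07, *Xdh* to 0.17, the median difference of the members to 0.12, and 1 gene in all passed. That scaling moves every gene by 0.19 between the labels and puts the median of all genes at 0.29 (0.11 unscaled), so the members' median stayed below it, and the sign changes follow from that shift. Median-of-ratios scaling moves all genes by -0.12. *Xdh* turned to 0.08 without replicate 2, and *Btn1a1* to 0.24, *Plin2* to -0.16 and *Muc1* to 0.37 without replicate 3. With 1 replicate left out at a time, between 0 and 14 genes passed (14 without replicate 4, which leaves 1 knockout-labelled library assumed to vary like the others), and the median difference of the members ran from -0.44 to 0.11. Their median level ran from 7.42 to 7.53, and the order by level kept all 7 neighbouring pairs except without replicate 1 (6 of 7). The same range was -0.36 to 0.24 for *Btn1a1*, -0.12 to 0.08 for *Xdh*, -0.16 to 0.76 for *Plin2*, -0.64 to 0.37 for *Muc1* and -0.94 to 1.68 for *Fcgbp*. The cause of these changes was not tested. No paired analysis was possible because the groups share no replicate number. FPKM limit the count-based precision to estimated fragments.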
